A study of Mus musculus with 44 samples.

Results

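The comparison described here covers 7 of the 44 low-input RNA-seq libraries of the series: 3 libraries of extraembryonic small intestine cells at embryonic day E13.5 (exSI) and 4 libraries of extraembryonic midgut cells at E9.5 (exMidgut). They were chosen by their titles, and no measured value entered that rule, though earlier results of these data were known. The study followed cells of extraembryonic origin that enter the gut of the mouse embryo, by aggregating an mCherry-positive pre-compaction morula of the CD1/G4 background with GFP-positive G4 embryonic stem cells (F1G4 in the study's methods, which keep the mCherry line by crosses to C57BL/6J). In such embryos mCherry, driven by the EF1a promoter from a PiggyBac insertion, marks the extraembryonic lineage, and GFP, driven by the CAG promoter at Rosa26, marks the embryonic lineage. The extraembryonic cells were sorted as EPCAM-positive and mCherry-positive, and the labels name no drug or other treatment.

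The exMidgut cells were wild type, and each library came from the midguts of 4 pooled embryos, enriched with magnetic beads before the sort. Each exSI library came from 1 embryo, sorted without that enrichment after the small intestine was cut from the colon. The exSI cells carried the label Trp53KO: Cas9 and 3 guides to Trp53 exons had been electroporated into the mCherry-positive zygotes, so that the knockout lay in the extraembryonic lineage and not in the GFP-positive host cells. A group edited in this way is not 1 clone, each embryo can carry its own alleles, and an edited transcript can still be counted as Trp53 RNA. Wild-type extraembryonic cells of the E13.5 small intestine were not analysed here, so stage and genotype cannot be told apart in any of the values below. Libraries of the same 2 stages with embryonic origin served for comparison, emMidgut (4) and emSI (3, from embryos of the same kind, with unedited Trp53), as did the extraembryonic hindgut (exHindgut, wild type, 4) and colon (exColon, Trp53KO, 3). The gate differed between the embryonic groups: emSI is labelled EPCAM and GFP, and emMidgut GFP and mCherry dual low, so stage and gate cannot be told apart there.

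The gut endoderm has a dual origin. Most of it derives from the epiblast, and a smaller part descends from visceral endoderm, the epithelium around the early embryo that secretes serum proteins such as alpha-fetoprotein and later lines the yolk sac. The midgut becomes the small intestine, where CDX, HNF4, GATA and Krüppel-like factors control the genes of absorptive enterocytes, the cells whose brush border of microvilli carries digestive enzymes and transporters. p53, the transcription factor encoded by Trp53, induces genes of cell cycle arrest and apoptosis after stress, and in the embryo it takes part in the removal of unfit cells.

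Abundance is given in TPM, a share of transcripts that is scaled by transcript length and library total. A change is the difference of the group means of log2(TPM + 1), positive where exSI was higher. It was tested with limma, the p-values were adjusted by the Benjamini-Hochberg method over all genes tested, and calls required an adjusted p below 0.05 and a change of more than 1 in either direction. Aligned sequence implied by the coverage was 4.91 to 8.71 Gb in exSI and 5.70 to 8.66 Gb in exMidgut. Between 11415 and 12170 genes lay above 1 TPM in an exSI library and between 13222 and 13353 in an exMidgut library.

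Trp53 (chromosome 11, 69580359-69591873, mm10), the targeted gene, was measured at 33.4, 167 and 117 TPM in exSI replicates 1, 2 and 3 and at 136 to 184 TPM in exMidgut. Only exSI replicate 1 lay far below the wild-type range, replicate 3 lay slightly below it and replicate 2 lay within it. The change was -0.84 (SE 0.42, adjusted p = 0.18, limma), and it ran from -1.31 without exSI replicate 2, when it was called (adjusted p = 0.044), to -0.17 without exSI replicate 1. Trp53 RNA therefore did not separate the groups and does not check the label. The p53 target genes are given further down, where stage and genotype likewise cannot be told apart.

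The lineage labels held in each library. mCherry stood at 3017, 4203 and 8667 TPM in exSI and at 5868 to 8273 in exMidgut, whereas EGFP reached at most 5.67 TPM in these 7 libraries and 474 to 650 TPM in emSI. mCherry was not called (change -0.60, adjusted p = 0.147), except without exSI replicate 3 (change -1.02, adjusted p = 0.00234). Epcam, the sort marker, was measured at 1134 to 1656 TPM in exSI and 841 to 1030 TPM in exMidgut. Sex was not matched between the groups. Xist, the RNA of the inactive X chromosome, was at 0 to 0.61 TPM in exSI and at 22.3 to 113 TPM in exMidgut, and Y-linked Eif2s3y was measured in all 3 exSI libraries (40.5 to 81.4 TPM) and at 0.69 to 87.6 TPM in the pooled exMidgut libraries. Genes of the X chromosome made up 3.68% of the genes tested, 2.45% of those called higher and 5.89% of those called lower, and the part of sex in any single change was not tested.

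Markers of other cell types were low and mostly lower in exSI. The summed TPM of 10 mesenchyme markers was 0.02 to 10.5 in exSI and 29.6 to 41.5 in exMidgut (0 of 5 tested genes higher, 2 lower), and that of 6 smooth muscle markers 0 to 2.22 and 29.0 to 44.2 (0 of 3 higher, 2 lower). The sums of the immune cell markers were 0.99 to 5.38 and 10.4 to 27.8 (0 of 2 higher, Csf1r lower), and those of surface ectoderm 0.00 to 2.46 and 10.3 to 19.9 (0 of 3 higher, 3 lower). No marker of blood, endothelium or neurons passed the filter on low values. The pancreas list went the other way, at 49.2 to 217 TPM in exSI, 0 to 0.90 in exMidgut and 161 to 356 in emSI. Of it only Cpa1 was tested and called higher, while Cel, Ins1, Ins2 and Prss1 were at 0 in all 7 libraries. The stomach list summed to 86.5 to 162 TPM in exSI and 16.2 to 67.4 in exMidgut (2 of 6 higher, 3 lower) and the liver list to 31.7 to 54.6 and 18.1 to 20.9 (1 of 4 higher, 0 lower). The lists for colon (2 tested), primordial germ cells (2) and sex-linked genes (3) held no call. These counts stand beside 3.97% of all tested genes called higher and 11.4% called lower. The part of other cells in the changes below was not tested, and in bulk RNA fewer cells of a type cannot be told apart from less RNA per cell.

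**Figure D1:**
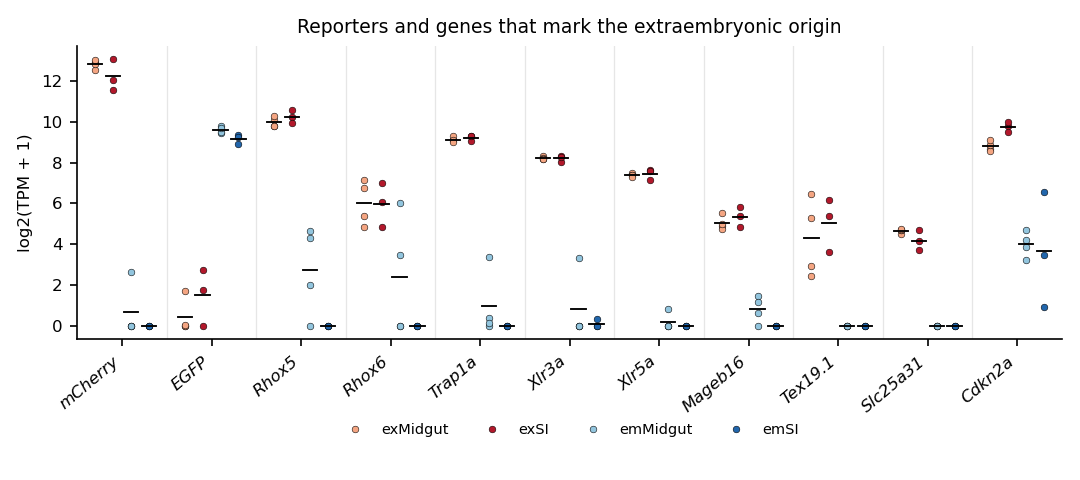
The plot shows log2(TPM + 1) (vertical axis) of both reporters and of 9 genes linked to the extraembryonic origin (horizontal axis) in each library of exMidgut (4), exSI (3), emMidgut (4) and emSI (3), with a line at each group mean. mCherry, Rhox5, Rhox6, Trap1a, Xlr3a and Xlr5a overlap between exMidgut and exSI, and Cdkn2a lies higher in exSI.

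No X-linked gene that marks the extraembryonic origin was called between the stages. Rhox5, a homeobox gene of placenta and testis (X chromosome, 37804842-37808876), was measured at 1186, 977 and 1548 TPM in exSI and at 891, 1080, 1261 and 895 TPM in exMidgut, and at 0 in every emSI library. The groups overlapped, with a change of 0.25 (SE 0.17, adjusted p = 0.333). Trap1a, a tumour rejection antigen gene, measured 535 to 637 TPM in exSI and 513 to 633 in exMidgut (change 0.10, SE 0.13, adjusted p = 0.645). Xlr3a, of an X-linked family of lymphocyte-regulated genes, had 264 to 321 and 289 to 316 TPM (change -0.01, SE 0.14, adjusted p = 0.976). Xlr4c, of the same family, was lower in each exSI library (52.9, 46.2 and 22.95 TPM against 65.4 to 85.04) and missed the fold threshold narrowly (change -0.99, SE 0.30, adjusted p = 0.0369). It was called without exSI replicate 1 (change -1.22) or replicate 2 (change -1.13). None of the 15 tested genes of this list was called in either direction, and their median change was -0.01. Of all genes tested 3.97% were called higher and 11.4% lower, so a list of this size would hold few calls at those shares. The 13 tested autosomal germline genes likewise held no call (median 0.08). Among them Tex19.1, a gene that guards the genome of germ cells, varied widely, at 70.0, 40.4 and 11.3 TPM in exSI and 4.50 to 88.5 TPM in exMidgut.

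Of 12348 genes tested between exSI and exMidgut, 490 (3.97%) were called higher and 1409 (11.4%) lower in exSI. In 474 of the higher and 1354 of the lower genes the groups did not overlap, against 1113 genes with every exSI library above and 2615 with every exSI library below exMidgut among all those tested. Fewer genes were detected in exSI, and the median change of all genes was -0.33, so the balance of directions depends on the scaling. Higher calls made up 25.8% of all calls on TPM, 42.0% after median-ratio rescaling (724 higher, 998 lower), 39.0% on FPKM (666 and 1041) and 46.6% after quantile normalization (694 and 794). Among genes with a mean above 10 TPM, 403 were higher and 941 lower. The values of the lists above and below are to be read beside that median and beside the shares of 3.97% and 11.4%.

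**Figure D2:**
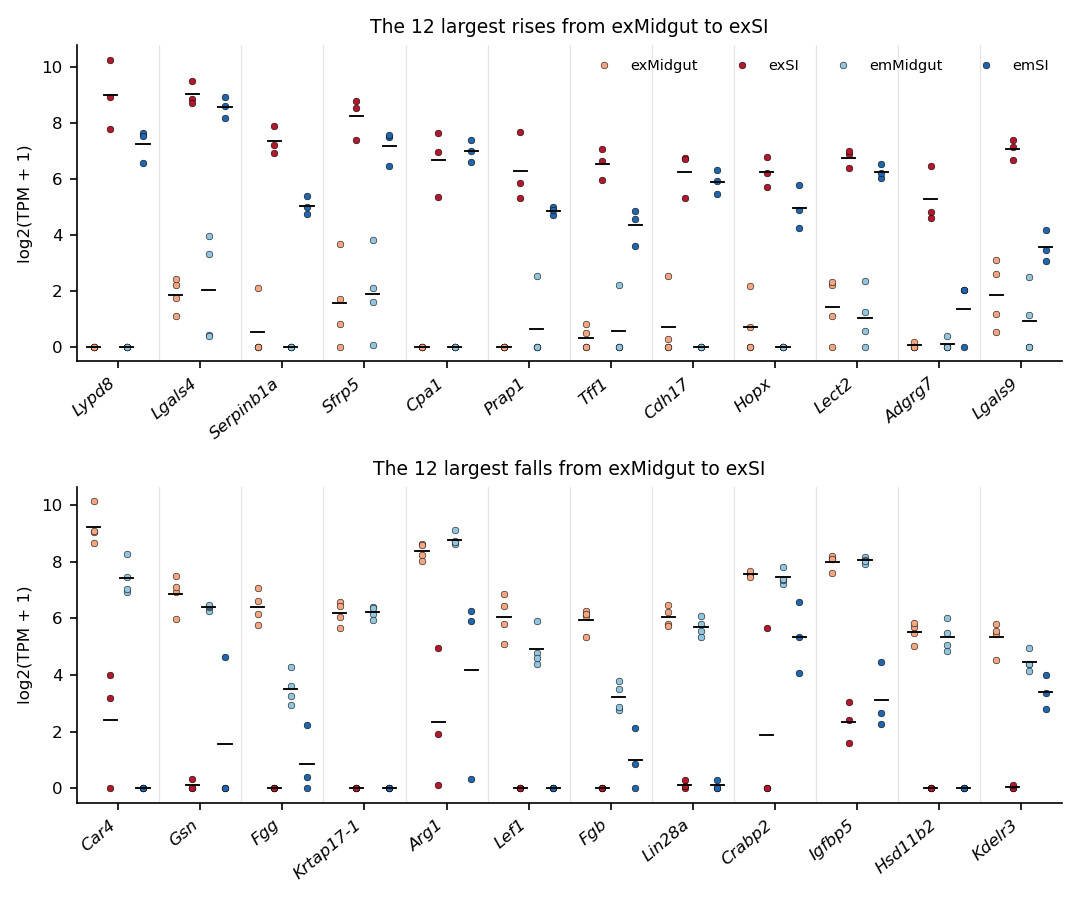
The plot shows log2(TPM + 1) (vertical axis) in each library, with a line at each group mean, of the 12 called genes with the largest rises (upper panel) and falls (lower panel) from exMidgut to exSI among those whose groups did not overlap. All 3 exSI libraries lie above all 4 exMidgut libraries in the upper panel and below them in the lower panel, and the embryonic libraries of the 2 stages stand beside them.

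The 12 largest rises included Lypd8, Lgals4 and Cdh17, known from the intestinal epithelium, but also genes best known from other organs. Lypd8 (chromosome 11, 58379043-58390728), which encodes a secreted protein that keeps flagellated bacteria from the epithelium, was listed at 0 in all 4 exMidgut libraries and stood at 488, 1232 and 223 TPM in exSI (adjusted p = 5.85e-06). Lgals4, a galectin of the enterocyte membrane, was at 470, 720 and 419 TPM in exSI and at 1.12 to 4.32 TPM in exMidgut (change 7.17, SE 0.38, adjusted p = 2.56e-06). Cdh17, a cadherin of the intestinal epithelium, was at 107, 104 and 38.9 TPM in exSI and at 0 to 4.78 TPM in exMidgut (change 5.56, SE 0.69, adjusted p = 0.000414). In each case the lowest exSI library lay far above the highest exMidgut library. Tff1, a trefoil peptide that is best known from the stomach, was at 98.9, 133 and 60.8 TPM against 0 to 0.76 (change 6.23, SE 0.50). Cpa1, a carboxypeptidase of the pancreas, was at 198, 126 and 40.5 TPM and listed at 0 in all exMidgut libraries. Among the others, the Wnt inhibitor Sfrp5 (169 to 438 TPM against 0 to 11.8), the homeodomain cofactor Hopx (51.2 to 111 against 0 to 3.504) and the galectin Lgals9 (101 to 166 against 0.43 to 7.57) had changes of 6.70, 5.52 and 5.23. The 12 were completed by Serpinb1a, Prap1, Lect2 and Adgrg7, with exSI values between 23.4 and 239 TPM and exMidgut values of 4.01 TPM or less. In 30 of the 490 rises every exMidgut library was listed at 0.

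Transcription factors of the intestine were among the genes that rose. Of 26 tested, 9 were called higher and 3 lower, with a median change of 0.87. Hnf4g, one of the HNF4 factors of enterocytes, was at 13.6, 41.6 and 19.16 TPM in exSI and at 0 to 0.44 TPM in exMidgut (change 4.39, SE 0.55, adjusted p = 0.000414). Its relative Hnf4a, at 29.0, 91.3 and 9.23 TPM against 1.71 to 35.3, overlapped between the groups (adjusted p = 0.265). Elf3, an epithelial ETS factor (chromosome 1, 135253575-135258568), was at 256, 411 and 261 TPM against 9.74 to 26.8 (change 4.08, SE 0.36, adjusted p = 5.14e-05). Isx, which controls carotenoid uptake in the intestine, was at 191, 213 and 231 TPM against 8.49 to 34.7 (change 3.56, SE 0.41, adjusted p = 0.000232). Klf5, a factor of proliferating crypt cells, was at 51.6 to 96.1 TPM against 10.3 to 23.8 (change 2.18, SE 0.36). Cdx2, the master regulator of the hindgut and midgut, was already high and stood at 175, 212 and 241 TPM against 128 to 180, a change of 0.45 that was not called (adjusted p = 0.119). Foxa1, a pioneer factor of the earlier endoderm, was lower, at 22.4 to 37.2 TPM against 103 to 122 (change -1.97, SE 0.24, adjusted p = 0.00031).

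Of 17 tested brush border and adhesion genes 8 were called higher and 2 lower, with a median of 1.03. Krt20, a keratin of differentiated enterocytes, was at 119, 121 and 133 TPM in exSI and at 30.2 to 44.01 TPM in exMidgut (change 1.77, SE 0.23, adjusted p = 0.000474). Cdhr5 and Ush1c, parts of the links between microvilli, were at 19.23 to 41.2 against 0.06 to 4.97 TPM and at 25.5 to 109 against 2.19 to 11.2 TPM (changes 3.32 and 2.96). The 2 members called lower were Espn, an actin bundler of microvilli (16.2 to 31.2 against 55.6 to 114 TPM), and Ceacam1, an adhesion molecule (0 to 2.18 against 6.35 to 22.8 TPM). Digestive hydrolases were less uniform. Only 7 of 16 passed the filter on low values, of which Anpep, an aminopeptidase, and Ggt1, a gamma-glutamyltransferase, were called higher. Anpep was at 35.2, 42.3 and 48.2 TPM against 2.36 to 11.4, whereas Dpp4, another peptidase, was at 35.9 to 73.3 TPM against 36.9 to 71.5 and was not called (change 0.02).

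Lipid and retinoid absorption split into genes that rose and genes that fell (4 of 18 higher, 4 lower, median -0.43). Fabp2, the fatty acid-binding protein of the small intestine, was at 177, 239 and 187 TPM in exSI and at 2.51 to 8.81 TPM in exMidgut (change 5.20, SE 0.39, adjusted p = 1.55e-05). Fabp1, its counterpart of liver and intestine, was at 385, 1033 and 289 TPM against 21.1 to 62.2 (change 3.84, SE 0.44, adjusted p = 0.000256). Rbp2, which carries retinol in enterocytes, was at 117, 115 and 137 TPM against 23.5 to 34.1 (change 2.13, SE 0.24, adjusted p = 0.000229). All 3 genes separated the groups fully. Apoa2, an apolipoprotein of liver and yolk sac, went the other way, at 4.29 to 8.56 TPM against 48.0 to 222 (change -4.08, SE 0.49, adjusted p = 0.000317), and Apoa1 was high in both, at 1224 to 2502 and 440 to 2410 TPM (change 0.42, adjusted p = 0.547). Of 17 tested transporters 4 were higher and 2 lower (median 0.07). Slc51a, a subunit of the basolateral bile acid exporter, was at 44.1 to 93.2 against 1.56 to 5.96 TPM and the iron exporter Slc40a1 at 112 to 213 against 40.8 to 62.3 TPM, while the glucose transporter Slc2a1 was at 126 to 177 against 326 to 733 TPM and the zinc transporter Slc39a4 at 0.53 to 14.7 against 52.4 to 90.6 TPM.

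The letters upstream of 3 genes called higher are shown for the sequences that CDX and HNF4 factors are known to bind. Of these factors Hnf4g was called higher, and Cdx2 and Hnf4a were not. The letters are the 250 bases before the transcription start in RefSeq (GRCm38.p6, the build mm10), on the gene's strand, chosen after their letters were seen. Capitals mark the core letters bound by CDX factors, TTTAT, and by HNF4 factors, CAAAG, on either strand (ATAAA and CTTTG on the other strand). The promoters are Fabp1 (chr6:71199629-71199878, plus strand), Fabp2 (chr3:122894822-122895071, plus strand) and Krt20 (chr11:99438154-99438403, minus strand).
Fabp1: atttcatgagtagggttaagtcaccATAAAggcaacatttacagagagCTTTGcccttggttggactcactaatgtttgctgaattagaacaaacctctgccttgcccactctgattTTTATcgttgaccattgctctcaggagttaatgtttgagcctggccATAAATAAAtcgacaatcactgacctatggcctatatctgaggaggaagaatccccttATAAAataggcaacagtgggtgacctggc
Fabp2: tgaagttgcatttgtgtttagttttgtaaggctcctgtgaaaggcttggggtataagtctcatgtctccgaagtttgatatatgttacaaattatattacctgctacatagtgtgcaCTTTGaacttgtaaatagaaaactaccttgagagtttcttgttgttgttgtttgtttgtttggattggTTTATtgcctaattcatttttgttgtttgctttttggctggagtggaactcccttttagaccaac
Krt20: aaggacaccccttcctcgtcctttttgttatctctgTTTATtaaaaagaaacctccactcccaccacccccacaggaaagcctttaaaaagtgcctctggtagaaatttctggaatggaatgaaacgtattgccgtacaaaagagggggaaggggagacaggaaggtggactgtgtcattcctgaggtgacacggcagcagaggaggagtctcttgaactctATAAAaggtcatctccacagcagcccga
The CDX letters occur 5 times before Fabp1 (2 of them overlapping), 1 time before Fabp2 and 2 times before Krt20, and the HNF4 letters 1 time before each of the FABP genes. Of 9723 tested genes with an upstream sequence in the table, 22.97% hold the CDX letters, against 33.3% of 360 called higher and 23.3% of 1091 called lower. The HNF4 letters occur before 43.0%, 47.8% and 43.1%, and the GATA letters GATAA before 14.2%, 20.6% and 15.1%. Some CDX matches, such as the last one before Fabp1 and before Krt20, lie where a TATA box is commonly found. These shares are descriptions of letters, without a test.

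Secretory and stem cell genes held calls in both directions. Of 16 tested secretory genes 3 were higher and 3 lower (median -0.89). Fcgbp, a mucus protein of goblet cells, was at 12.6 to 31.1 against 0 to 3.60 TPM and Muc13, a membrane mucin, at 125 to 164 against 16.6 to 77.8 TPM. Isl1, a factor of enteroendocrine cells and of mesenchyme, was at 0, 0 and 1.74 TPM against 5.06 to 89.1 (adjusted p = 0.00429), and Tph1, which makes serotonin, was listed at 0 in all exSI libraries and at 1.48 to 13.7 TPM in exMidgut. Of 24 tested stem cell and Wnt response genes 3 were higher and 5 lower (median -0.65). Sox9, a factor of intestinal progenitors, was at 107, 68.5 and 94.6 TPM against 17.8 to 27.1 (change 1.94, SE 0.28, adjusted p = 0.000843), and Myc at 72.8, 100 and 64.5 against 7.27 to 37.0 TPM (change 2.20, SE 0.49). Spp1, osteopontin, was also called higher, with exSI replicate 1 (1315 TPM) far above replicates 2 and 3 (127 and 140). Lef1, a nuclear partner of beta-catenin, was listed at 0 in all exSI libraries and at 33.4 to 114 TPM in exMidgut (adjusted p = 3.51e-05). In signalling, 3 of 25 tested hedgehog, Notch and BMP genes were higher and 8 lower (median -0.46, or 0.06 after quantile normalization). Shh, the ligand that the gut epithelium sends to the mesenchyme, was at 28.9 to 64.7 against 66.8 to 136 TPM (change -1.39, SE 0.33, adjusted p = 0.0141), and Bmp4 was listed at 0 in all exSI libraries and at 14.9 to 58.4 TPM in exMidgut. Mesenchyme also makes Isl1 and Bmp4, and its marker sum was lower in exSI, as given above. The part of mesenchyme in the falls of Isl1 and Bmp4 was not tested.

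The 12 largest falls were in genes of varied known roles. Car4, a membrane carbonic anhydrase (chromosome 11, 84957786-84966044), was at 14.8, 0 and 8.15 TPM in exSI and at 400 to 1116 TPM in exMidgut (change -6.84, SE 0.74, adjusted p = 0.000177). Gsn, the actin-severing protein gelsolin, was at 0, 0 and 0.25 TPM against 61.7 to 178 (change -6.76, SE 0.44, adjusted p = 1.08e-05). Lin28a, an RNA-binding protein of pluripotent and early embryonic cells that blocks let-7 microRNAs (chromosome 4, 134003330-134018841), was at 0.24, 0 and 0.06 TPM against 51.4 to 87.0 (change -5.92, SE 0.43, adjusted p = 1.54e-05). Igfbp5, which binds insulin-like growth factors, was at 2.05 to 7.33 TPM against 191 to 295 (change -5.64, SE 0.34). Arg1, arginase, was at 2.73, 0.08 and 29.8 TPM against 261 to 397 (change -6.06, SE 0.81). Crabp2, which carries retinoic acid, was at 0 in exSI replicates 1 and 2 and at 49.9 TPM in replicate 3, against 173 to 204 TPM in exMidgut. Fgg, Fgb, Krtap17-1, Lef1 and Hsd11b2 were listed at 0 in all 3 exSI libraries, as were 157 of the 1409 called falls in all, and Kdelr3 completed the 12.

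Of 15 tested genes of the early embryonic programme 6 were lower and 1 higher (median -1.19). Beside Lin28a, the lower genes included Sall4, a pluripotency zinc finger factor, at 7.85, 10.2 and 17.3 TPM against 82.0 to 109 (change -2.94, SE 0.31, adjusted p = 0.000152), Sox11 at 31.0 to 47.0 against 124 to 141 TPM (change -1.74) and Igf2bp1, a let-7 target, at 45.6 to 57.9 against 102 to 132 TPM (change -1.19). Mycn was the member called higher, at 88.1 to 119 against 27.6 to 68.3 TPM. Of 28 tested Hox genes 13 were lower and none higher (median -2.09), for example Hoxa10 at 0.05, 0 and 14.2 TPM against 22.97 to 43.7. Of 19 tested imprinted genes 10 were lower and none higher (median -1.41), among them Peg3, a zinc finger gene expressed from the paternal allele, at 133 to 257 against 679 to 748 TPM (change -1.79, SE 0.21, adjusted p = 0.000293) and Cdkn1c, a growth-restraining CDK inhibitor, at 25.3 to 63.0 against 182 to 378 TPM (change -2.83, SE 0.32). Igf2, which is also imprinted, was at 204 to 260 against 130 to 182 TPM and was not called (adjusted p = 0.0804). Of 16 tested genes of the DNA methylation machinery 3 were lower, the methyltransferases Dnmt3a and Dnmt3b and the demethylase Tet1. Dnmt3a was at 30.8, 40.1 and 81.8 TPM against 129 to 154, and Tet1 at 7.26 to 14.8 against 37.1 to 50.9 TPM. The call of Dnmt3b was lost without exMidgut replicate 1 (adjusted p = 0.0577).

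Of 27 tested visceral endoderm and serum protein genes, the programme of the cells' ancestors, 14 were lower and 3 higher (median -2.06). Afp, alpha-fetoprotein (chromosome 5, 90490737-90508907), was at 832, 345 and 512 TPM in exSI and at 4641, 7408, 8162 and 6142 TPM in exMidgut (change -3.61, SE 0.26, adjusted p = 1.54e-05). Afp was still abundant in exSI in each library, though below every exMidgut library. The 3 fibrinogen genes Fga, Fgb and Fgg were listed at 0 in all exSI libraries, with 7.07 to 39.95, 39.4 to 75.5 and 53.8 to 134 TPM in exMidgut. Dab2, an endocytic adaptor of visceral endoderm, was at 1.09 to 2.26 against 33.8 to 82.8 TPM (change -4.39, SE 0.44, adjusted p = 0.000122) and Podxl, a sialomucin of the apical membrane, at 8.64 to 29.1 against 180 to 270 TPM (change -3.498, SE 0.35). Rbp4 and Trf, the plasma carriers of retinol and iron, stayed abundant, at 2367 to 3753 and 212 to 504 TPM in exSI, and were not called (changes 0.16 and 0.35). Cystm1 was called higher, at 468 to 720 against 205 to 321 TPM, as were Amn and Ambp. The call of Amn (change 1.55, adjusted p = 0.0353) was lost when 1 of 4 libraries, exSI replicate 1, 2 or 3 or exMidgut replicate 4, was left out (largest adjusted p = 0.0946).

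**Figure D3:**
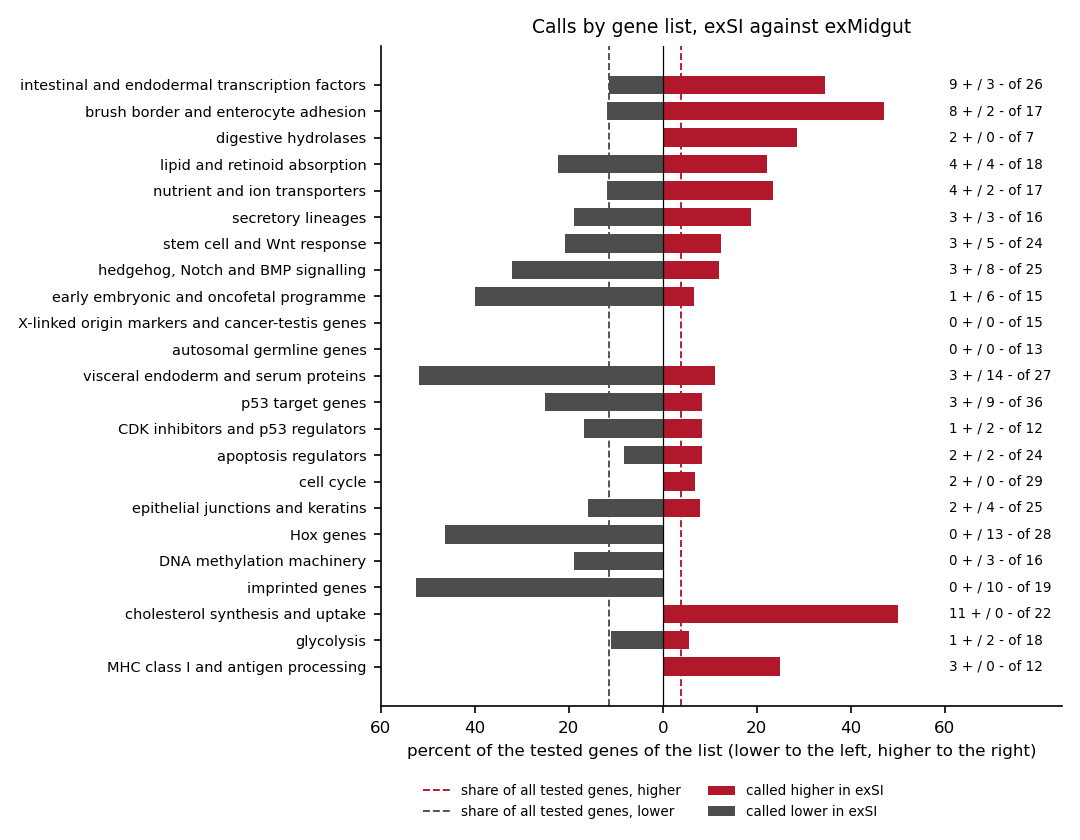
The bars give the percentage of the tested genes of each list (rows) called higher (right) or lower (left) in exSI than in exMidgut, dashed lines give the same for all 12348 genes, and the numbers at the right count the calls. Among the lists plotted, higher calls are most frequent for cholesterol synthesis (11 of 22) and brush border genes (8 of 17), and lower calls for imprinted (10 of 19) and visceral endoderm genes (14 of 27).

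Of 36 tested p53 target genes 9 (25.0%) were lower and 3 (8.33%) higher, with a median of -0.72 against -0.33 for all genes. Both shares lay above those of all genes, and lower calls made up 9 of the 12 calls here and 1409 of the 1899 over all genes, so the balance of directions was that of the background. After quantile normalization 6 were lower and 4 higher, beside 794 and 694 of all genes. Ccng1, cyclin G1, which feeds back on the p53 regulator MDM2 (chromosome 11, 40748552-40755311), was at 12.2, 13.9 and 11.9 TPM in exSI and at 78.7, 114, 63.0 and 135 TPM in exMidgut (change -2.80, SE 0.31, adjusted p = 0.000201). Phlda3, an inhibitor of AKT signalling (chromosome 1, 135766119-135769136), was at 0, 0 and 9.77 TPM against 55.3 to 83.4 (change -4.90, SE 0.73, adjusted p = 0.00112). Eda2r, a death receptor of the TNF family, was listed at 0 in all exSI libraries and at 11.3 to 33.1 TPM in exMidgut (adjusted p = 0.000304). These 3 genes separated the groups fully, as did 1354 of the 1409 genes called lower among all tested. Psrc1, at 6.37 to 13.3 against 34.8 to 72.3 TPM, Zmat3, an RNA-binding tumour suppressor, at 0.02 to 1.56 against 6.64 to 9.24 TPM, Tnfrsf10b, another death receptor, at 1.25 to 5.56 against 14.6 to 28.1 TPM, and Sesn2, a stress-induced sestrin, at 11.2 to 25.0 against 43.2 to 50.4 TPM, were also called lower (changes -2.41, -2.46, -2.40 and -1.51). The calls of Ddit4l and Mdm2 were less firm. Ddit4l (change -2.32, adjusted p = 0.0181) was no longer called without exMidgut replicate 2 or 4 (largest adjusted p = 0.0622), and Mdm2, the ubiquitin ligase of p53, at 40.5, 10.96 and 18.7 against 41.6 to 59.8 TPM (change -1.24, adjusted p = 0.0474), was called only with all libraries or without exSI replicate 1, its change ranging from -1.72 to -0.82 (without exSI replicate 2).

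Other p53 targets were not called lower. Cdkn1a, the CDK inhibitor p21, was at 236, 217 and 368 TPM in exSI and at 225 to 378 TPM in exMidgut, with wide overlap (change -0.04, SE 0.23, adjusted p = 0.917). Bax, a mediator of apoptosis, was lower in each exSI library (302 to 361 against 451 to 567 TPM) but below the fold threshold (change -0.60, SE 0.14, adjusted p = 0.0127). Btg2, an antiproliferative gene that also responds to growth signals, was called higher (117 to 186 against 41.9 to 68.6 TPM, change 1.36, SE 0.25), as were Pmaip1, which encodes the death protein NOXA (19.5 to 51.7 against 0.75 to 9.55 TPM), and the kinase gene Plk3, which was listed at 0 in all exMidgut libraries. The call of Pmaip1 (change 2.35) was lost without exSI replicate 1 or 3 (largest adjusted p = 0.0913). In the other Trp53KO group, exColon, Ccng1 stood at 31.2, 23.2 and 9.95 TPM against 90.2 to 158 TPM in exHindgut, Phlda3 at 20.8, 0 and 11.1 against 91.2 to 243, and Eda2r at 0 against 39.8 to 91.1 TPM. Cdkn1a, Plk3 and Pmaip1 differed between small intestine and colon, as given further down.

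**Figure D4:**
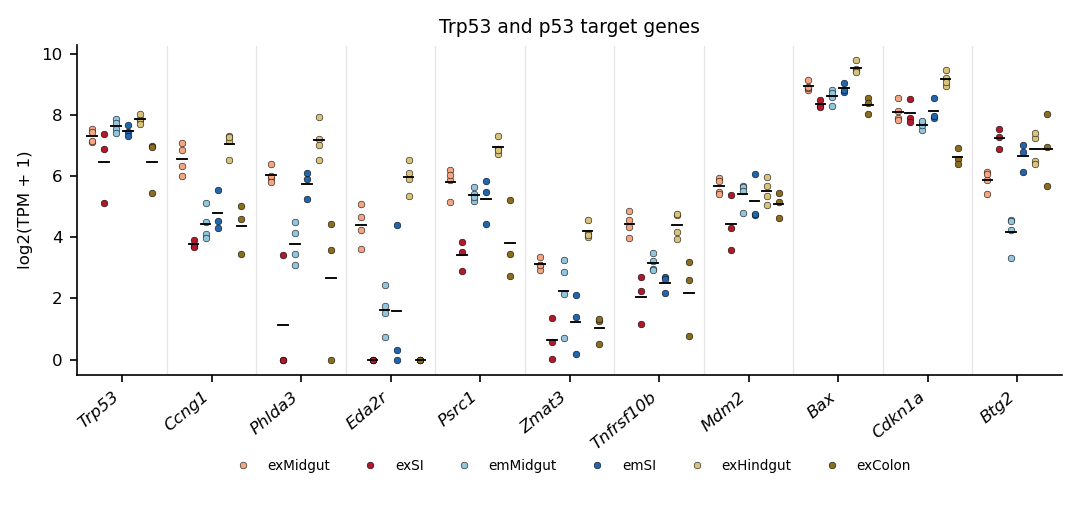
The plot shows log2(TPM + 1) (vertical axis) of Trp53 and 10 p53 target genes (horizontal axis) in each library of 6 groups, with a line at each group mean. Ccng1, Phlda3, Eda2r, Psrc1, Zmat3 and Tnfrsf10b lie lower in exSI than in exMidgut, Cdkn1a overlaps between them, and Btg2 lies higher in exSI.

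The upstream letters of 3 target genes called lower are shown because they hold a p53 half-site, a decamer that occurs in pairs where p53 binds. They were chosen after their letters were seen. They come from the same table and build, on the gene's strand, with the half-site in capitals: Ccng1 (chr11:40755287-40755536, minus strand), Mdm2 (chr10:117710759-117711008, minus strand) and Ddit4l (chr3:137623422-137623671, plus strand).
Ccng1: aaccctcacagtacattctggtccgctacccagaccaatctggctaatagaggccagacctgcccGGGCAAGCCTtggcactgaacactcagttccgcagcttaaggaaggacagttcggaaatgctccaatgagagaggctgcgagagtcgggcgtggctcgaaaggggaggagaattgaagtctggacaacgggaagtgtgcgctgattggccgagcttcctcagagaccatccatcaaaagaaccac
Mdm2: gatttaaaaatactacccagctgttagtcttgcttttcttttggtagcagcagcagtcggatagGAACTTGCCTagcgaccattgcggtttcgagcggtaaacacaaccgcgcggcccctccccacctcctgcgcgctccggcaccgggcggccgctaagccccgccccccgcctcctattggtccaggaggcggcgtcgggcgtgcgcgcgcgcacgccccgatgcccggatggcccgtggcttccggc
Ddit4l: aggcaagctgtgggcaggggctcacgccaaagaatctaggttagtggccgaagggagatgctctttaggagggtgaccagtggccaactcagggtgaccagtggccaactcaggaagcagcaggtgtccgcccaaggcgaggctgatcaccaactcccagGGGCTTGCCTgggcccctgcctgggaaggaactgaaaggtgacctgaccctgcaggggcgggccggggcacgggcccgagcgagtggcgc
The half-site starts 185 bases before the start of Ccng1, 186 before that of Mdm2 and 90 before that of Ddit4l. Only full matches to the decamer are marked and counted. Near matches, such as the letters directly before the capitals in Ccng1, are not. Matches among the other targets called lower are not counted here, and the calls of Mdm2 and Ddit4l were less firm, as given above. A half-site occurs in 5.94% of the 9723 upstream sequences, in 7.22% of those of genes called higher and in 5.96% of those called lower, and the lack of a match in this window says nothing of binding elsewhere, for example in an intron.

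Of 29 tested cell cycle genes 2 were higher and none lower (median 0.26). They were Pcna, the DNA clamp of replication, at 222, 238 and 321 against 90.4 to 205 TPM (change 1.10, adjusted p = 0.0161), which was not called without exSI replicate 3 or exMidgut replicate 2 (largest adjusted p = 0.0547), and cyclin D2, Ccnd2, at 206 to 212 against 54.6 to 133 TPM (change 1.18), which fell under the fold threshold without exMidgut replicate 1 (change 0.93). Of 12 tested CDK inhibitors and p53 regulators Cdkn2b, the inhibitor p15, was higher (72.3 to 195 against 35.3 to 57.7 TPM, change 1.54), and Cdkn1c and Trp63 were lower. Cdkn2a, which encodes p16 and the MDM2 inhibitor p19ARF, was at 885, 1005 and 723 TPM in exSI and at 381 to 547 TPM in exMidgut. The groups did not overlap, and its change of 0.96 (SE 0.16, adjusted p = 0.00231) lay just under the fold threshold, passing it without exSI replicate 3 (1.08) or exMidgut replicate 4. In emSI Cdkn2a was at 10.1, 93.4 and 0.89 TPM. Of 24 tested apoptosis regulators 2 (8.33%) were higher, Bok (42.1 to 80.5 against 6.89 to 20 TPM) and Cycs, and 2 (8.33%) lower, among them Bmf (3.42 to 9.69 against 18.8 to 36.6 TPM), beside 3.97% and 11.4% of all genes. The call of Cycs (change 1.05, and 0.99 without exMidgut replicate 3) lay near the fold threshold.

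Apart from the lists of other cell types, cholesterol synthesis was the list with the highest share of higher calls (11 of 22 tested higher, none lower, median 1.13). Fdps, farnesyl diphosphate synthase (chromosome 3, 89093588-89101959), was at 480, 571 and 527 TPM in exSI and at 180, 184, 141 and 150 TPM in exMidgut (change 1.69, SE 0.16, adjusted p = 7.79e-05). Idi1, of the preceding step, was at 72.9 to 106 against 7.0 to 19.7 TPM (change 2.49, SE 0.38, adjusted p = 0.0012). Genes of the whole path, from Hmgcs1 through Mvd, Sqle, Lss and Cyp51 to Tm7sf2, were among the 11. Fdps and Idi1 were called whichever single library was left out. Cyp51 lost its call without exSI replicate 1 (adjusted p = 0.0508), and Mvd, Sqle and Lss lost theirs in 4, 4 and 5 of the 7 cases (largest adjusted p = 0.0877). Of 18 tested glycolysis genes 1 was higher and 2 were lower, with a median of -0.49 beside -0.33 for all genes, or -0.50 beside -0.01 after quantile normalization. Of 25 tested junction and keratin genes 2 were higher and 4 lower (median -0.54), with Cldn6, an embryonic claudin, at 352 to 808 against 1388 to 1517 TPM and F11r at 107 to 207 against 359 to 447 TPM. Cldn6 fell short of the fold threshold without exSI replicate 2 (change -0.93). Of 12 tested genes of MHC class I and antigen processing 3 were higher and none lower, the immunoproteasome subunit Psmb10 (53.7 to 129 against 12.2 to 43.6 TPM) with H2-M3 and Erap1, whose calls were each lost in 3 of 7 cases (largest adjusted p = 0.103), while the median of -0.21 turned to 0.02 after median-ratio rescaling.

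The same interval in cells of embryonic origin, with unedited Trp53, gave 407 genes higher (3.248% of 12531 tested) and 1693 lower (13.51%) in emSI than in emMidgut, with a median change of -0.37. The 2 comparisons share no library, but the handling changed in the same way in both. Each library of the E9.5 midgut groups came from 4 pooled embryos enriched with magnetic beads. Those of the E13.5 small intestine groups came from single embryos without that enrichment. The part of this shared handling in the changes was not tested. In emMidgut EGFP was at 702 to 880 TPM and mCherry at 0 to 5.29 TPM, and the X-linked origin markers summed to 5.29 to 171 TPM, against 0.10 to 11.5 in emSI. Some embryonic libraries stood apart in markers of other cells. The primordial germ cell markers summed to 502 and 690 TPM in emMidgut replicates 1 and 3 and to 37.2 and 38.5 in replicates 2 and 4. In emSI the mesenchyme markers summed to 571, 178 and 1.93 TPM and the smooth muscle markers to 767, 10.5 and 1.41 TPM in replicates 1, 2 and 3. Without emMidgut replicates 1 and 3, a setting added after these values were seen, 219 genes were called higher and 539 lower, and without emSI replicate 1 the counts were 421 and 1862. The part of other cells and of the gate in these changes was not tested. Of the 490 genes higher in exSI, 455 were tested in the embryonic cells, and 424 of them (93.2%) changed in the same direction there, against 32.0% of all genes with a positive change. Of these, 223 were called in both, which is 49.0% of the extraembryonic and 59.9% of the 372 embryonic calls tested in both, and 2 were called in opposite directions. Of the 1409 genes lower in exSI, 1377 were tested, 1321 (95.9%) had the same direction, against 68.0% of all genes, 714 were called in both (51.9% and 43.8% of either set of calls) and 1 was called in the opposite direction. The median change of the rises was 1.82 in extraembryonic and 1.17 in embryonic cells and that of the falls -2.01 and -1.38; the genes were selected by their extraembryonic change, so the larger size there carries no weight. Across 11838 genes tested in both, Pearson's r of the changes was 0.68 and Spearman's rho 0.62, over genes, which are not independent replicates.

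Many of the intestinal genes named above were high in emSI too. Lypd8 was at 202, 183 and 94.6 TPM in emSI and 0 in all emMidgut libraries, Lgals4 at 293 to 490 against 0.29 to 14.4 TPM, Elf3 at 113 to 163 against 6.83 to 25.4 TPM and Fabp2 at 46.9 to 138 against 0 to 2.41 TPM. The counts of the lists in the embryonic cells, which were not tested against those above, were as follows: transcription factors (9 of 26 higher, 5 lower), brush border genes (7 of 16 and 4), Hox genes (0 of 31 and 15), the early embryonic programme (0 of 15 and 10), visceral endoderm genes (4 of 26 and 12) and cholesterol synthesis (8 of 22 and 0). For p53 target genes they were 5 of 37 higher and 1 lower, with a median of -0.06 in the embryonic and -0.72 in the extraembryonic cells.

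The difference between the changes of the 2 origins, tested as an interaction over the 14 libraries, was called for 16 of 13544 genes (0.118%) at an adjusted p under 0.05, 7 with a more positive and 9 with a more negative change in the extraembryonic cells. At an unadjusted p under 0.05 there were 1302. Origin, strain and Trp53 genotype cannot be told apart in this term. The gate changed only between the embryonic groups, and sex was not matched between the extraembryonic groups. The part of gate and sex in this term was not tested. The count is small and unsteady: it ranged from 8 to 65 with 1 library left out (8 without exMidgut replicate 2, 65 without emSI replicate 3), it was 6 without emMidgut replicates 1 and 3, the libraries with high germ cell markers, and it was 199 when the spread was estimated over all 44 libraries. Those 6 were Slc38a5, Phlda3, Kdelr3, Fabp1, Ctrb1 and Resp18. Terms of 8 genes were called whichever single library was left out (Slc38a5, Phlda3, Kdelr3, Fabp1, Wfdc10, Ctrb1, Resp18 and Reg1). A further one, that of Ccng1, was lost only without exMidgut replicate 2 (adjusted p = 0.0526), and those of Acta1, Jaml, Serpinf1, Emid1, Commd3, Ndufa4l2 and Chgb were lost in 5 to 12 of the 14 cases (largest adjusted p = 0.139, for Acta1 and Ndufa4l2).

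The 16 genes included 2 of the p53 target list. Phlda3 fell in extraembryonic cells as given above and was at 58.2, 67.1 and 36.8 TPM in emSI against 7.47 to 21.6 in emMidgut, where it was called higher (change 1.95, adjusted p = 0.00506). Its interaction term was -6.85 (adjusted p = 0.00268). Ccng1 was at 22.2, 46.0 and 18.7 TPM in emSI and at 14.6 to 33.4 TPM in emMidgut and was not called there (change 0.38, adjusted p = 0.508), with a term of -3.18 (adjusted p = 0.0134, or 0.182 without emMidgut replicates 1 and 3). Ccng1 was high in exMidgut, above all emMidgut and emSI libraries, and it was also high in exHindgut, as given above. The exSI libraries lay below the lowest emMidgut library.

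Fabp1 showed the opposite pattern. It was higher in exSI (289 to 1033 TPM) than in exMidgut, whereas emSI stood at 62.3, 156 and 77.3 TPM and emMidgut at 122 to 249 TPM (change -0.94, adjusted p = 0.0503), and the term was 4.78 (adjusted p = 0.00252). The related Rbp2, with 8.64 to 28.1 TPM in emSI and 19.6 to 39.9 TPM in emMidgut, had a term of 2.59 that missed the threshold (adjusted p = 0.0511). Slc38a5, a glutamine transporter of the fetal intestine and pancreas, was listed at 0 in all exSI libraries and at 13.95 to 40.5 TPM in exMidgut, while emSI had 131 to 378 TPM and emMidgut 17.1 to 294 TPM (term -7.02, adjusted p = 0.00406). Kdelr3, a receptor that returns proteins to the endoplasmic reticulum, was at 0 to 0.08 TPM in exSI and 21.8 to 54.9 TPM in exMidgut, with 5.88 to 15.0 TPM in emSI and 16.7 to 29.8 TPM in emMidgut (term -4.21, adjusted p = 0.00406). Chgb and Resp18, of the secretory granules of endocrine cells, and Ctrb1 and Reg1, of the exocrine pancreas, were listed at 0 in all 7 extraembryonic libraries and at up to 184, 21.0, 43.0 and 22.1 TPM in emSI, so that their terms reflect embryonic values alone. Jaml and Wfdc10 were at 0 in all embryonic libraries, and in exSI Wfdc10 was at 43.6, 18.02 and 30.4 TPM.

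**Figure D5:**
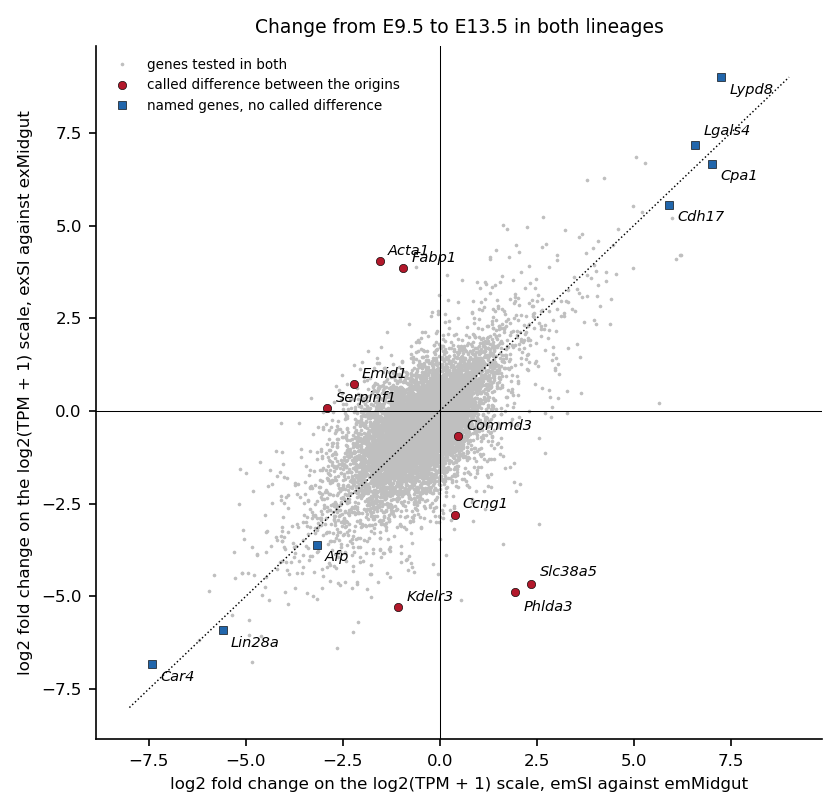
Each point is a gene tested in both lineages, with its change from emMidgut to emSI on the horizontal and from exMidgut to exSI on the vertical axis, both on the log2(TPM + 1) scale, and a dotted line of equal change. Marked are 7 named genes without a called difference, such as Lypd8 and Car4, and the 9 called terms tested in both lineages. Among the called terms, Phlda3 and Slc38a5 (lower right) and Fabp1 (upper left) lie far from the line. The 2 kinds of marked genes are not set apart by their distance from the line alone.

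The change in the small intestine was also set against that in the colon, from exHindgut to exColon, which passes through the same stages and the same genotypes. The interaction was called for 897 of 13460 genes, 333 (2.47%) more positive and 564 (4.19%) more negative in the small intestine. Of the 27 tested visceral endoderm and serum protein genes 19 had a called negative term and none a positive one. Afp was at 1375, 2761 and 3462 TPM in exColon and at 22.1 to 437 TPM in exHindgut, a rise where the small intestine had a fall (term -7.92, adjusted p = 4.63e-05). Fgb was likewise at 28.4 to 47.4 TPM in exColon and 0 to 2.77 TPM in exHindgut (term -10.47, adjusted p = 2.29e-07) and Hpx, haemopexin, at 33.6 to 70.3 against 1.20 to 3.29 TPM, while in the small intestine Hpx was at 1.53 to 27.9 against 84.7 to 327 TPM (term -8.15). Of the Hox genes 8 had a positive and 1 a negative term. Sycn and Tff3, of pancreatic granules and of mucus, were high at both stages of the small intestine (429 to 938 and 788 to 1878 TPM in exSI) and rose in the colon from 5.09 TPM or less. Cpa1 was at 0 in all exColon libraries (term 6.86, adjusted p = 2.46e-05). Of the 37 tested p53 target genes 5 had a called positive term and none a negative one, beside 2.47% and 4.19% of all genes. Among the 5 were Cdkn1a (term 2.51), Plk3 (3.47) and Pmaip1 (6.12). For the p53 targets Ccng1, Phlda3 and Eda2r no difference between small intestine and colon was detected (adjusted p = 0.946, 0.897 and 0.185).

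Over 13968 genes, the log2(TPM + 1) values of exSI libraries correlated among each other with a mean Pearson's r of 0.895 (SD 0.0082, 3 pairs). The mean was 0.872 with emSI (SD 0.0095, 9 pairs), 0.852 with exColon (9 pairs), 0.846 with exMidgut (SD 0.0099, 12 pairs), 0.832 with emMidgut and 0.803 with yolk sac endoderm of E9.5. Each exSI library was nearer to emSI, which shares its stage and organ, than to exMidgut, which shares its origin, by 0.0232, 0.034 and 0.0228. These are correlations over genes and carry no test. The exSI and emSI libraries also shared single embryos and the lack of magnetic enrichment. Between 11899 and 12439 genes lay above 1 TPM in an emSI library, against 13222 to 13353 in an exMidgut library. The part of handling and detection in the similarity was not tested.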

How the data were processed

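RNA of 7 libraries, 3 exSI and 4 exMidgut, was compared; the members and gene lists were chosen with earlier results of these data known. The authors made poly(A) libraries from few sorted cells without strand marking, used cutadapt 4.1 for trimming, STAR 2.7.9a for alignment to mm10 with both reporter sequences added, and StringTie 2.0.6 for the abundance of GENCODE VM23 genes. The deposited tables give TPM, FPKM and coverage per gene, the first used throughout, FPKM as an alternative and the coverage signal only for the aligned sequence of each library. Counts of reads were not used here, so the depth behind a single value is unknown and precision is given by the spread between replicates. The replicates are single embryos (exSI) or pools (exMidgut).

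TPM was summed per gene identifier (32287, of which 32235 matched GENCODE vM21, used for positions and gene types; 38 symbols carry more than 1 identifier). Genes that code for protein, lie outside the Y chromosome and exceeded 1 TPM in 3 or more libraries of a fit were tested on log2(TPM + 1) with limma 3.58.1 (lmFit, eBayes with trend, two-sided) in R 4.3.3, which was tested on simulated data first. This scale understates changes of low genes, and where all libraries of a group were listed at 0 no change is printed, interaction terms excepted. Each fit held only the groups compared, interactions had no fold threshold, and their libraries numbered 14. Upstream sequences came from RefSeq, matched by symbol to the start nearest to the annotated one.

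Genes were named by rule: Trp53, the reporters, origin and sex-linked genes; the 12 largest rises and falls among called genes with groups that did not overlap; the 6 largest positive and negative terms of each interaction; and any member of the lists. The other origin terms, the genes singled out in the closing section and the examples taken within a list were chosen after their values were seen. Antisense or overlapping genes cannot be told apart without strand. Some list members are counted but not reported here by name.

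Other settings tried were a pseudocount of 0.1, all genes above 0 in place of the filter, median-ratio rescaling, quantile normalization, FPKM, eBayes without trend, all gene types, all 44 libraries in a single fit, a replicate block with the correlation estimated by statmod 1.5.0, and leaving out each library. Leaving out emMidgut replicates 1 and 3 together was added after seeing the data. Summaries used Python 3.11.15 with SciPy 1.17.1, pandas 2.3.3 and NumPy 2.4.6.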

Additional observations from a re-analysis of the deposited data

Results flagged for a closer look

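In 16 of 144 genes named in the text, 1 of the 4 exMidgut libraries stood apart from the others on the log2(TPM + 1) scale (Dixon's test); chance sets apart about 5% of such groups, and the named genes are no random choice. Replicate 3 was low for Cyp51 (4.05 TPM, others 21.4 to 22.2), Idi1 (7.0, others 17.5 to 19.7) and Bmf (18.8, others 33.7 to 36.6). Replicate 1 was low for Pmaip1 (0.75, others 7.87 to 9.55) and Ifi35 (0.0, others 2.02 to 2.21), and replicate 2 for Postn (4.70, others 14.4 to 16.4), while replicate 4 was high for Dnmt3a (154, others 129 to 131) and Cdh17 (4.78, others 0 to 0.22). The remaining 8 were single low values beside libraries at or near 0: EGFP (2.30), Acta1 (3.88), Ndufa4l2 (1.96) and Adgrg7 (0.13) in replicate 1, Serpinb1a (3.24) and Fgf8 (0.59) in replicate 2, and Hnf4g (0.44) and Wfdc10 (2.03) in replicate 3.

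The change from E9.5 to E13.5 differed between the origins, by the limma interaction, in 16 genes. It was more negative in extraembryonic cells for Slc38a5 (-7.02), Phlda3 (-6.85), Chgb (-5.96), Ctrb1 (-5.01), Kdelr3 (-4.21), Resp18 (-3.95), Reg1 (-3.77), Ccng1 (-3.18) and Commd3 (-1.14). It was more positive for Acta1 (5.59), Fabp1 (4.78), Wfdc10 (4.50), Jaml (4.07), Ndufa4l2 (3.87), Serpinf1 (2.97) and Emid1 (2.95). Among these, Serpinf1 stood at 44.8 to 103 TPM in exSI and 38.1 to 93.3 TPM in exMidgut and fell in embryonic cells, from 58.3 to 91.0 TPM to 6.31 to 14.6 TPM. Ndufa4l2 was at 0 in every exSI and emSI library, so that its term reflects emMidgut values of 12.2 to 36.9 TPM.

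Between small intestine and colon the 6 largest terms of either sign were those of Fgb (-10.47), Hpx (-8.15), Sycn (-8.06), Postn (-8.02), Afp (-7.92) and Tff3 (-7.87), and of Fgf8 (8.55), Lmo2 (7.61), Hist1h2bm (7.17), Cyp26a1 (7.16), Cpa1 (6.86) and Wnt5b (6.77). Postn, a matrix protein of mesenchyme, was at 257 to 372 TPM in exColon and at 16.4 TPM or less in exSI, exMidgut and exHindgut. Hist1h2bm, a histone gene, was at 56.8, 10.2 and 38.0 TPM in exSI and 0.14 to 2.79 TPM in exMidgut, and in the colon it was at 0.10 to 0.49 TPM against 10.3 to 17.5 TPM in exHindgut.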

How the results depend on the processing

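The number of genes called between exSI and exMidgut was 1899 and ran from 1391 (without exMidgut replicate 2) to 1961 (without exSI replicate 1) with 1 library left out, 403 to 471 of them higher and 981 to 1511 lower. It rose to 2999 (2342 lower) when all 44 libraries shared 1 estimate of the spread, and quantile normalization left 794 lower calls. Between emSI and emMidgut median-ratio rescaling gave 685 higher and 1060 lower calls and quantile normalization 665 and 803. Between exColon and exHindgut 1281 genes were called, 450 higher and 831 lower, with 782 to 1586, 295 to 515 and 487 to 1119 when 1 library was left out (lowest without exHindgut replicate 2), and 2543 (769 and 1774) in the fit of all libraries. The 897 terms between the regions (333 and 564) became 2171 there (946 and 1225).

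The 16 terms between the origins (7 and 9) were least stable, with 8 to 65 in all, 2 to 21 positive and 6 to 44 negative when 1 library was left out. They became 30 without the filter (13 and 17), 26 after quantile normalization (11 and 15), 25 on FPKM (15 negative), 35 without trend (15 and 20) and 199 in the fit of all libraries (86 and 113). Without emMidgut replicates 1 and 3, chosen after seeing their germ cell markers, 6 terms were left (1 and 5), and 758 calls (219 and 539) between emSI and emMidgut, with fewer libraries in the fit. The lead of emSI over exMidgut in similarity to exSI, 0.0267, was 0.0141 over every gene above 0 and 0.132 over the 2000 most variable genes. The cause of these shifts was not tested.

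Replicate numbers are shared between groups but name no common embryo or batch. A fit with the replicate number as a replicate block gave 1935 calls between exSI and exMidgut (estimated correlation 0.0189), 16 terms between the origins and 877 between the regions, within 1.5 times of the values without the block. Depth per gene is unknown, so a gene listed at 0 in exSI may be present below detection.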

Other observations

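Genes outside the lists were looked up after their values were seen. The 4 immediate early genes looked up, of a class that cells switch on within minutes of a stimulus, were higher in exSI, and other members of the class were not counted. Fos stood at 843, 474 and 1269 TPM in exSI and 61.3 to 213 TPM in exMidgut (change 2.74, SE 0.41, adjusted p = 0.00113, limma) and also rose in the embryonic cells (change 3.396, adjusted p = 0.000132). Nr4a1 was at 64.6 to 225 against 0.06 to 6.71 TPM (change 4.90), Atf3 at 93.5 to 214 against 1.39 to 12.5 TPM (change 4.49) and Zfp36 at 22.1 to 80.3 against 0.84 to 8.04 TPM (change 2.97). The groups did not overlap for any of these 4, and each was called in the embryonic cells as well. The exMidgut and emMidgut cells passed through a magnetic enrichment that the exSI and emSI cells did not, and the part of handling was not tested.

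The metallothionein genes Mt1 and Mt2, whose products bind zinc and copper, were also called higher. Mt1 was at 2090, 1665 and 2135 TPM in exSI against 67.0 to 469 TPM in exMidgut (change 3.53, SE 0.49, adjusted p = 0.000707), and in emSI at 86.4 to 185 TPM against 76.3 to 115 TPM in emMidgut (change 0.58, adjusted p = 0.137). The difference between the origins was not called (2.96, adjusted p = 0.0844). Mt2 was at 784 to 1325 against 43.4 to 207 TPM (change 3.49), with a difference between the origins of 2.52 (adjusted p = 0.173).

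The 3 genes looked up that respond to interferon were higher in exSI, and other such genes were not counted. Ifi27 was listed at 0 in all exMidgut libraries and stood at 44.7, 30.0 and 23.1 TPM in exSI (adjusted p = 0.000109), and Rtp4 was listed at 0 and stood at 8.53 to 13.6 TPM. Ifi35 was at 44.6 to 58.6 against 0 to 2.21 TPM (change 4.51, SE 0.54, adjusted p = 0.000306). For none of these 3 was a difference between the origins called (adjusted p = 0.287, 0.529 and 0.515).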
